A study of Macaca mulatta with 9 samples.

Results

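Adding testosterone to a Western-style diet (WSD) was examined in small antral follicles of the rhesus macaque by setting the 3 arrays of females on the diet with chronically elevated androgen (WSD+T) against the 3 arrays of females on the diet without it. These 6 of the 9 arrays of the series were taken by their titles, and all probe sets other than the array's control probes entered the comparison. WSD+T and WSD females ate the same diet and differ, as far as the labels say, in the androgen treatment, whose dose, route and duration the labels do not give. The other 3 arrays, from control females on a standard diet, give the level without either treatment. They were tested against neither group, and their values are set beside both as a description. In 1 alternative fit they were used to estimate the spread. All females were young adults in the early follicular phase, sampled at or near menses. Each array holds the follicles of 1 ovary, on average 3.7 ± 0.3 follicles per ovary (the kind of error is not stated) from 3 ovaries in each group, judged healthy by a clear antrum without dark oocytes or granulosa cells. The follicles were freed of surrounding stroma and lysed whole, and their RNA comes from the follicle wall, its granulosa cells, the cumulus cells and the oocyte. The 3 arrays of a group are labelled biological replicates, and the number of arrays limits the precision.

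In a small antral follicle, theca cells make androgen under luteinising hormone, and granulosa cells turn it into oestradiol with aromatase. Androgen also acts on the follicle itself, through changes in gene expression. Raised androgen is a defining feature of polycystic ovary syndrome, in which follicles collect at about this stage, and obesity is common in it.

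The arrays of the groups were not equally alike, and this bears on every value that follows. Signal is the linear, scaled brightness of a probe set, and differences below are log2 of signal plus 16, WSD+T minus WSD. Between pairs of WSD+T arrays, 45 to 234 of the 26383 tested probe sets differed at least 2-fold, whereas between pairs of WSD arrays 2624 to 5530 did. WSD replicates 2 and 3 stood farthest apart, with 5530 such probe sets, more than between any WSD and any WSD+T array (1607 to 4243). WSD+T replicates 1 and 3 were the closest pair, with 45. They are labelled as separate biological replicates, and averaging them into 1 sample left 0 probe sets past the threshold (3300 had an unadjusted p under 0.05 in that limma fit). The mean variance within the group was 0.334 for WSD, 0.0409 for WSD+T and 0.149 for control, and it was larger in WSD than in WSD+T for 21514 probe sets (81.5% of those tested).

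**Figure D1:**
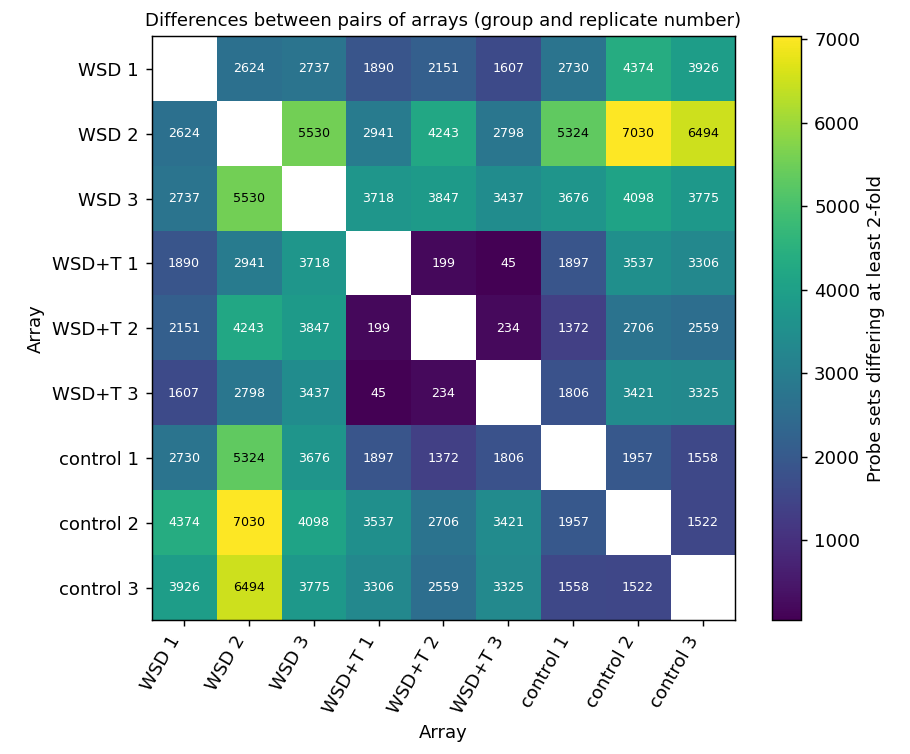
Number of tested probe sets that differ at least 2-fold between each pair of arrays, by group and replicate number on both axes; the colour scale runs with the printed number. The 3 WSD+T arrays differ from each other in 45 to 234 probe sets, while the WSD arrays differ from each other in 2624 to 5530.

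Markers of cell types followed the same split. The summed signal of 17 macrophage and other myeloid genes was 17893, 26927 and 989 in WSD replicates 1 to 3 and 18955, 16636 and 18039 in WSD+T, against 10614, 2026 and 2471 in control. WSD replicate 3 had far less of this RNA, with 6 of the 17 genes below the signal of 20.7 at which probe sets were kept, while WSD replicates 1 and 2 were level with or above WSD+T. The 11 endothelial genes summed to 2036, 4158 and 683 in WSD and 2909.9, 2476 and 2703 in WSD+T, again lowest in WSD replicate 3 and highest in WSD replicate 2. The 16 granulosa cell genes summed to 25436, 16534 and 26811 in WSD and 22240.0, 24999 and 21443 in WSD+T, with WSD replicate 2 the lowest array. In whole-follicle RNA, fewer cells of a type and less RNA per cell cannot be told apart.

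**Figure D2:**
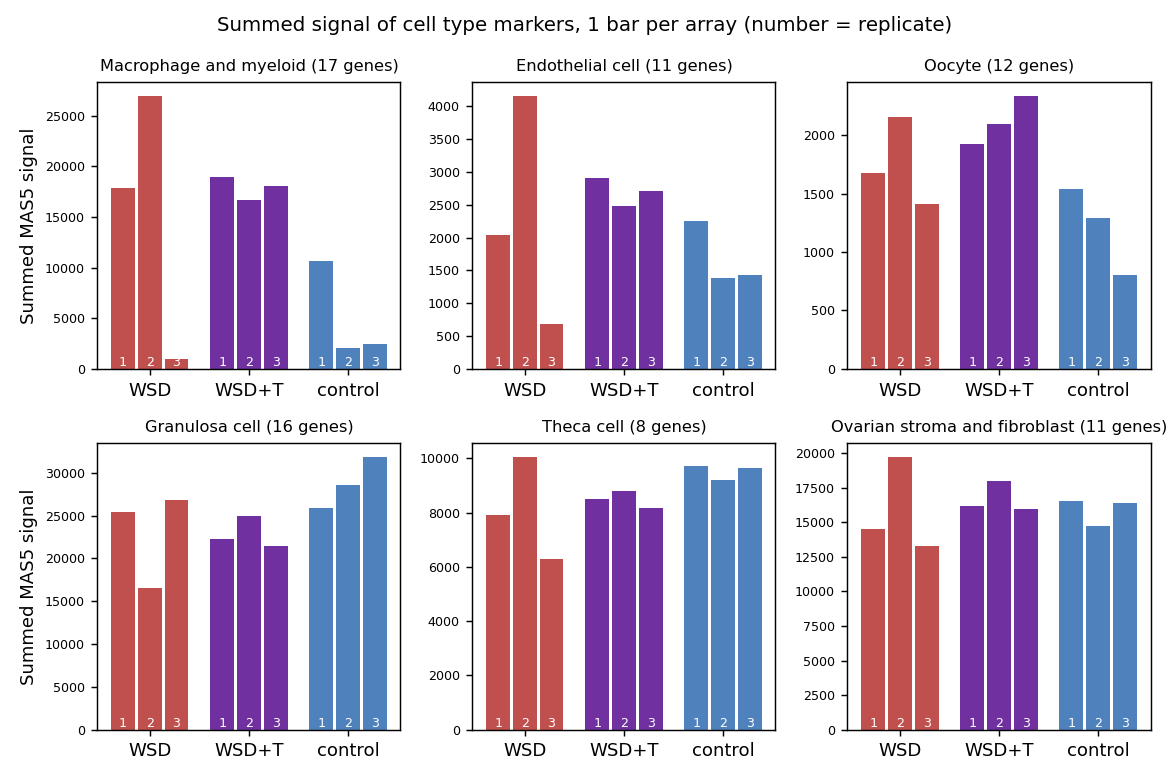
Summed signal (y axis, linear) of the marker genes of 6 cell types, 1 bar per array, with the replicate number at the foot of each bar. WSD replicate 3 has a summed myeloid signal of 989 against 16636 to 18955 in WSD+T, and WSD replicate 2 has the tallest myeloid and endothelial bars and the lowest granulosa bar.

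Few probe sets passed at an adjusted p under 0.05. With limma on the 6 arrays and Benjamini-Hochberg adjustment, 9 of 26383 probe sets passed (0.0341%), 7 higher and 2 lower in WSD+T. They include 3 of the 10046 named genes (0.0299%): OSM and THAP2 were higher and GLUD1 was lower. The other 6 probe sets had no gene symbol in the annotation used. All 9 passed again without WSD replicate 2 and without WSD replicate 3, when the calls numbered 988 and 1366, and none passed in limma when WSD replicate 1 or any 1 WSD+T array was left out (3087 to 4512 then had an unadjusted p under 0.05). The fits without WSD replicate 2 and without WSD replicate 3 shared 432 calls in the same direction, 43.7% of the first and 31.6% of the second. With all 9 arrays in the fit, so that the control arrays add to the estimate of spread, 808 probe sets passed, 550 higher and 258 lower.

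Below that threshold the differences were many and mostly small. At an adjusted p under 0.1 there were 1197 probe sets (4.54%), 818 higher and 379 lower. At an unadjusted p under 0.05 there were 5203 (19.7%), of which 65.42% were higher in WSD+T. That split depends on scaling, since 39.9% were higher after median centring, 48.88% after quantile normalization and 48.41% after cyclic loess. Median centring moved the median of all probe sets by -0.14, from a log2 difference of 0.09. Among the genes, 1904 (19%) had an unadjusted p under 0.05, 1308 higher (13%) and 596 lower (5.93%), and the 2 groups of 3 arrays did not overlap for 2889 (28.8%). These shares are the background against which the gene groups are read, and no gene with an adjusted p of 0.05 or more is called changed.

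OSM encodes oncostatin M, a cytokine of the interleukin-6 family that signals through the gp130 receptor to STAT3. Its signal (probe set MmugDNA.36389.1.S1_at) was 5.42, 1.69 and 2.20 in WSD replicates 1 to 3 and 147, 88.2 and 127 in WSD+T. All 3 WSD+T arrays were far above the 3 WSD arrays, whose values lie below the kept minimum, and the control arrays, at 8.18, 0.879 and 4.19, were as low as WSD. The log2 difference was 2.82 ± 0.20 (SE; adjusted p = 0.0385, limma), and it depends on the pseudocount because of the low WSD signal, being 4.97 with a pseudocount of 1 and 1.45 with 64. Activated macrophages are a known source of oncostatin M. The myeloid sum was 17893 and 26927 in WSD replicates 1 and 2, where OSM was 5.42 and 1.69, and the part of myeloid RNA in the OSM difference was not tested. Its signalling partners were not higher: IL6ST, which encodes gp130, was 314, 301 and 306 in WSD and 187, 139 and 183 in WSD+T (log2 difference -0.81, adjusted p = 0.0739). STAT3 was 87.2, 71.7 and 45.98 in WSD and 33.2, 22.6 and 33.9 in WSD+T (log2 difference -0.86, adjusted p = 0.121), and neither passed, although the groups did not overlap.

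THAP2, which encodes a THAP-type zinc finger protein, had a signal of 23.6, 15.7 and 19.4 in WSD and 107, 133 and 106 in WSD+T. Every WSD+T array was above every WSD array, and control, at 108, 87.1 and 115, was level with WSD+T. The group means were 19.6 ± 3.98 and 115 ± 15.2 (SD, n = 3 each), and the log2 difference was 1.89 ± 0.16 (SE; adjusted p = 0.0485). The WSD mean lies below the kept minimum of 20.7, so THAP2 was kept through its WSD+T values. Its difference ran from 1.10 to 2.51 over the alternative fits.

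GLUD1 encodes the mitochondrial glutamate dehydrogenase, which links glutamate to the citric acid cycle. It was 1337, 1003 and 1501 in WSD and 219, 237 and 287 in WSD+T. The 3 WSD+T arrays lay well below the WSD arrays and overlapped the control range of 283, 155 and 207. The means were 1280.2 ± 254 and 248 ± 35.5 (SD, n = 3 each), a ratio of 5.17, and the log2 difference was -2.29 ± 0.20 (SE; adjusted p = 0.0485). OSM, THAP2 and GLUD1 each have 1 tested probe set, and each lost its call in 4 of the 6 fits that left out 1 array, with adjusted p up to 0.325.

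**Figure D3:**
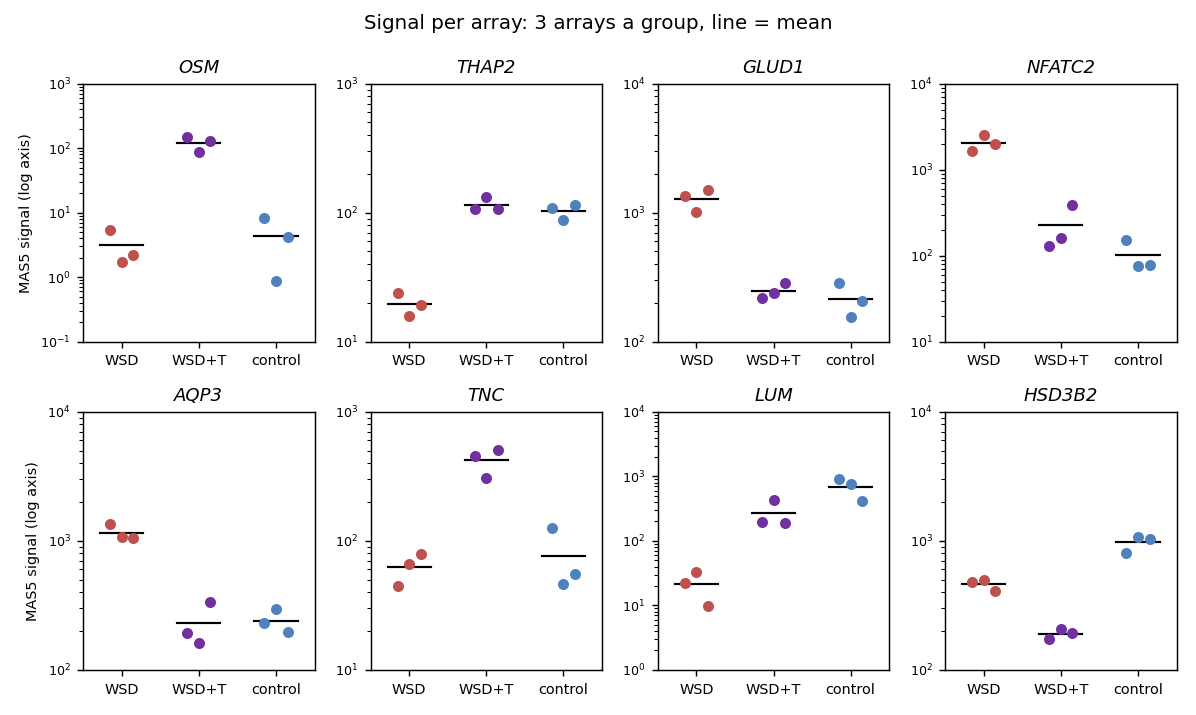
Signal (log axis) of 8 genes on each array, with WSD in red, WSD+T in purple and control in blue; points are arrays in replicate order and lines are group means. OSM, THAP2 and GLUD1 passed the test and the other 5 did not. In all 8 panels the WSD+T and WSD points do not overlap, as they do not for 28.8% of all genes. The 8 genes were picked for small p in this same comparison, so their lack of overlap tests nothing. In HSD3B2 the WSD points lie below control and the WSD+T points lower still.

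Among probe sets without a symbol, MmugDNA.14347.1.S1_s_at had the smallest p. It was 12.9, 17.4 and 11.6 in WSD and 480.2, 299.9 and 319 in WSD+T, with control at 191, 47.4 and 63.1. The WSD values of this probe set lie below the kept minimum, so it was kept through its WSD+T values. It rose by 3.65 ± 0.21 (log2, SE; adjusted p = 0.0336), and the WSD+T arrays were above control as well. The lower probe set without a symbol, MmugDNA.9539.1.S1_at, was 574, 537 and 508 in WSD and 184, 159 and 182 in WSD+T (log2 difference -1.54 ± 0.13, adjusted p = 0.0485).

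A further 8 genes ranked next among the higher ones and did not pass, all at an adjusted p of 0.0524. They are named because they had the smallest p among genes at least 2-fold higher, so their order is set by that rule. All 10 genes of the higher ranking, OSM and THAP2 included, passed without WSD replicate 2, without WSD replicate 3 and with all 9 arrays. None of them passed without WSD replicate 1 or without any 1 WSD+T array. All these fits reuse arrays that set the ranking, so they are no independent test of it. TNC, which encodes the matrix glycoprotein tenascin-C of remodelling tissue, was 44.6, 66.4 and 78.7 in WSD and 451, 309 and 502 in WSD+T. ADAMTS18, a secreted metalloprotease, was 66.95, 58.97 and 141 in WSD and 643, 543 and 655 in WSD+T. In both, the WSD+T arrays lay above all WSD arrays and above all control arrays (TNC at 127, 46.3 and 55.1, ADAMTS18 at 288, 404 and 145). Their log2 differences were 2.46 ± 0.25 and 2.66 ± 0.30 (SE). NHLH2, a basic helix-loop-helix factor known from neuroendocrine cells, was 27.4, 15.3 and 11.7 in WSD, 115, 107 and 96.97 in WSD+T and 4.87, 5.01 and 13.9 in control, so that it was measurable above the kept minimum on all WSD+T arrays and on 1 of the 6 others. PPM1K, the phosphatase that switches on branched-chain amino acid breakdown, was 159, 134 and 114 in WSD and 529, 442 and 489 in WSD+T. TRMT1L, related to tRNA-modifying methyltransferases, was 299, 316 and 271 in WSD and 779.8, 789 and 728 in WSD+T. For these 2 genes the groups did not overlap either, with log2 differences of 1.74 and 1.33. The remaining 3, C11H12orf50, FAM217B and METTL15, had log2 differences of 1.31, 1.36 and 1.29. METTL15 had a WSD mean signal of 12.0, below the kept minimum, and its difference ran from 0.61 to 2.06 over the alternative fits.

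A further 9 genes ranked next among the lower ones, at adjusted p of 0.0524 to 0.0557. All 10 of the lower ranking passed without WSD replicate 2 and without WSD replicate 3, and 9 passed with all 9 arrays, the exception being PPTC7. None of the 10 passed without WSD replicate 1 or without any 1 WSD+T array, and these fits too reuse the ranking arrays. NFATC2, a calcium- and calcineurin-dependent transcription factor, had the widest difference of the 10, with 1628, 2540.2 and 1967 in WSD and 131, 161 and 388 in WSD+T. The WSD+T values were close to the control values of 152, 76.5 and 77.7, and no WSD array came near either. The log2 difference was -3.21 ± 0.40 (SE), and its other tested probe set had the same sign with an unadjusted p under 0.05. AQP3, a channel for water and glycerol, was 1352, 1078 and 1045 in WSD, 195, 162 and 336 in WSD+T and 229, 297 and 196 in control. MLF1, which encodes myeloid leukaemia factor 1, was 1529.8, 1454 and 1150.0 in WSD, 271, 224 and 450.3 in WSD+T and 424, 122 and 256 in control. Both overlapped the control range under WSD+T and lay above it under WSD. LMNA, which encodes the nuclear envelope proteins lamin A and C, was 1139, 1196 and 1072 in WSD and 524, 489 and 521 in WSD+T. Its 3 other tested probe sets had the same sign, and the log2 difference was -1.13 ± 0.13 (SE). MME, the cell-surface peptidase neprilysin, was 577, 603 and 628 in WSD and 235, 188 and 251 in WSD+T, but its 1 other tested probe set had the opposite sign.

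HSD3B2 was the only one of the 10 lower genes whose WSD arrays lay below control. It encodes a 3-beta-hydroxysteroid dehydrogenase of theca and luteal cells, which makes progesterone and androstenedione. Its signal was 482, 498 and 408 in WSD, 172, 207 and 192 in WSD+T and 810.1, 1077 and 1040.1 in control. WSD was already below every control array, and WSD+T was below every WSD array. The log2 difference between WSD+T and WSD was -1.21 ± 0.15 (SE; adjusted p = 0.0524), a ratio of means of 2.43. The 8 theca cell markers together summed to 7921, 10056 and 6282 in WSD and 8503, 8799.9 and 8155 in WSD+T, which overlap.

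The plot of gene lists shows where the remaining groups sat. Each list is described by how many of its tested genes had an unadjusted p under 0.05 in each direction, beside 13% higher and 5.93% lower over all genes, and by its median log2 difference, beside 0.09 over all genes. The sign was positive for 6042 and negative for 4004 of the 10046 genes. Without WSD replicate 2 these numbers were 5873 and 4104, and without WSD replicate 3 they were 5592 and 4391. Over all genes, 1857 of 9977 were higher and 931 lower at an unadjusted p under 0.05 without WSD replicate 2. Without WSD replicate 3, 1666 of 9983 were higher and 852 lower. Higher and lower genes numbered 676 and 936 after median centring, 1006 and 761 after quantile normalization and 963 and 802 after cyclic loess. At an adjusted p under 0.05, 243 genes were higher and 102 lower without WSD replicate 2, and 354 and 135 without WSD replicate 3. Counts of a list in those fits are to be read beside these. Of the members of all lists, OSM was the one that passed at an adjusted p under 0.05.

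**Figure D4:**
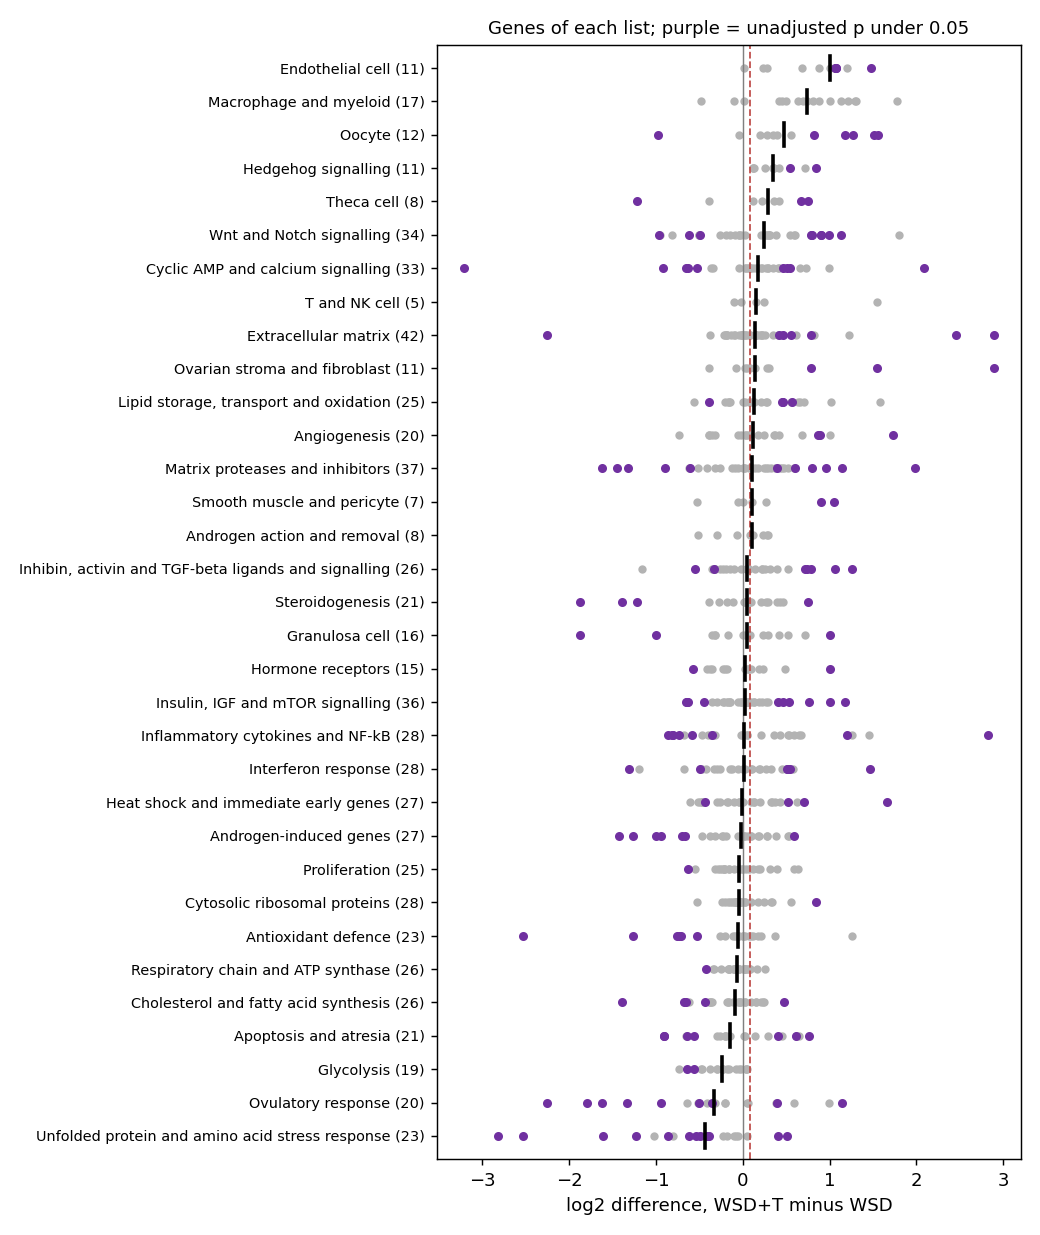
Log2 difference (WSD+T minus WSD, x axis) of every tested gene of the lists with at least 5 tested genes, 1 point per gene, with the number of tested genes in brackets. Purple points have an unadjusted p under 0.05, black bars are list medians and the dashed red line is the median of all genes, 0.09; the lowest median is that of unfolded protein and amino acid stress genes (-0.44) and the highest that of endothelial genes (1.00 with all 6 arrays, 0.32 without WSD replicate 3).

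Genes that androgen is known to induce in other tissues, mainly prostate, were not higher as a group. Of 27 tested genes, 1 was higher and 6 were lower at an unadjusted p under 0.05, with a median of -0.01. FKBP5, a co-chaperone known to be induced by androgen in prostate cells, was 139, 152 and 124 in WSD and 79.04, 66.4 and 101 in WSD+T. Every WSD+T array was below every WSD array, and the log2 difference was -0.66 ± 0.18 (SE; adjusted p = 0.121). HPGD, which degrades prostaglandins, was 2766, 1021 and 2428 in WSD and 553, 911 and 681 in WSD+T (log2 difference -1.42, adjusted p = 0.136), and its 4 other tested probe sets had the same sign with unadjusted p under 0.05. ELOVL5, a fatty acid elongase, was 125, 94.4 and 57.9 in WSD and 34.9, 18.8 and 31.2 in WSD+T (log2 difference -1.26). The 1 higher gene was TSC22D3, a steroid-induced leucine zipper protein, at 1229, 1085 and 1153 in WSD and 1739, 1810.2 and 1673 in WSD+T (log2 difference 0.59, adjusted p = 0.0908). TMPRSS2, a protease under androgen control in prostate, was 64.2, 75.2 and 36.3 in WSD and 98.6, 57.97 and 121 in WSD+T, which overlap. Of the 8 tested genes of androgen action and removal, 0 had an unadjusted p under 0.05 (limma), and the median was 0.10. CYP3A5, a steroid-oxidising cytochrome, was 184, 436 and 121 in WSD and 265, 194 and 253 in WSD+T, with the groups interleaved. SRD5A1 was not analysed here.

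Of 21 tested steroidogenesis genes, 1 was higher and 3 were lower at an unadjusted p under 0.05, and the median, 0.05, changed sign under median centring and without WSD replicate 2 (-0.10) or 3 (-0.05). CYP17A1, the theca enzyme that commits steroids to androgens, was 145, 295 and 168 in WSD and 383, 291 and 347 in WSD+T, below control at 559, 612 and 800.1. WSD replicate 2 lay within the WSD+T range, and the log2 difference was 0.76 ± 0.27 (SE; adjusted p = 0.203). CYP19A1, aromatase of granulosa cells, was 524, 139 and 154 in WSD, 44.02, 38.1 and 73.9 in WSD+T and 185, 587 and 306 in control. All 3 WSD+T arrays were below every other array, while WSD replicate 1 was within the control range, and the log2 difference was -1.87 ± 0.50 (SE; adjusted p = 0.122). STARD4, a cholesterol carrier, was 403, 455 and 1171 in WSD and 235, 202 and 221 in WSD+T, with WSD replicate 3 the highest array (log2 difference -1.39, adjusted p = 0.135). STAR, which moves cholesterol into mitochondria, was 3081, 4082 and 2416 in WSD and 2465, 2310.3 and 2377 in WSD+T (log2 difference -0.39, adjusted p = 0.367), and WSD replicate 3 lay within the WSD+T range. HSD17B1, which completes oestradiol synthesis, was 589.7, 59.5 and 587 in WSD, 274, 341 and 281 in WSD+T and 1017, 828 and 1569 in control. Its WSD+T values lay between the low WSD replicate 2 and the other 2 WSD arrays, and its sign turned with the scaling. CYP11A1 was not analysed here.

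Among 15 tested hormone receptor genes, 1 was higher and 1 lower at an unadjusted p under 0.05, and the median of 0.03 changed sign under all 3 other scalings and without WSD replicate 2 (-0.25) or 3 (-0.10). AMHR2, the receptor for anti-Müllerian hormone, was 61.3, 41.1 and 131 in WSD and 168, 161 and 144 in WSD+T, with no overlap (log2 difference 1.00 ± 0.34, adjusted p = 0.185). Its ligand AMH, made by granulosa cells of small follicles, was 214, 81.6 and 185 in WSD and 83.7, 159.6 and 118 in WSD+T and overlapped. ADIPOR2, an adiponectin receptor, was 1543, 1077 and 1437 in WSD and 897, 841 and 953 in WSD+T (log2 difference -0.57, adjusted p = 0.156), without overlap. ESR2, oestrogen receptor beta of granulosa cells, was 28.8, 8.30 and 41.6 in WSD and 32.2, 32.98 and 27.1 in WSD+T, and PGR, the progesterone receptor, was 49.03, 40.6 and 58.2 in WSD and 22.3, 52.2 and 28.1 in WSD+T. Neither separated the groups. ESR1 was below the kept minimum, and FSHR, LHCGR and INSR were not analysed here.

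Of 26 tested genes of inhibin, activin and other TGF-beta signalling, 5 were higher and 2 lower at an unadjusted p under 0.05, with a median of 0.05 that changed sign under median centring and without WSD replicate 2 (-0.04). ID3, a target of bone morphogenetic protein signalling, was 316, 220.4 and 319.9 in WSD and 642, 587 and 585 in WSD+T (log2 difference 1.06 ± 0.18, adjusted p = 0.0673), but its 1 other tested probe set had the opposite sign. ACVR1B, an activin type I receptor, was 73.1, 119.7 and 64.4 in WSD and 241, 201 and 224 in WSD+T (log2 difference 1.26 ± 0.23, adjusted p = 0.0688). Both had WSD+T above every WSD array, and 2 genes of the list passed without WSD replicate 2 and 2 without WSD replicate 3. INHA, the inhibin alpha subunit, was 336, 306 and 728 in WSD and 280.1, 343 and 394 in WSD+T, below every control array (957, 2605 and 2535) in both. INHBA, the activin A subunit, was 2113, 2186 and 1760.3 in WSD and 1661, 1401 and 1659.6 in WSD+T (log2 difference -0.35, adjusted p = 0.272).

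All 11 tested hedgehog genes had a positive sign, against 6042 of 10046 over all genes, with a median of 0.35. An unadjusted p under 0.05 was found for 2 of them (18.2%), near the 19% of all genes. The smallest of the 11 values, 0.12, turns negative after median centring, which lowers all values by 0.14. Without WSD replicate 2, 3 of the 11 were negative and the median was 0.18, and without WSD replicate 3, 1 was negative and the median was 0.56. SUFU, which restrains the GLI factors, was 113, 146 and 154 in WSD and 289, 222 and 262 in WSD+T (log2 difference 0.84 ± 0.17, adjusted p = 0.0836), and it was level with control at 275, 286 and 219 under WSD+T. IHH, the granulosa cell ligand that acts on theca, was 25.4, 5.70 and 45.6 in WSD and 12.99, 234 and 18.3 in WSD+T, against 628, 956 and 627 in control. WSD+T replicate 2 alone stood out among the 6 arrays, and none of them reached the control range. PTCH1, the hedgehog receptor, was 50.05, 29.2 and 67.4 in WSD and 59.96, 108 and 46.8 in WSD+T, with WSD+T replicate 2 highest and all 6 arrays below control (208, 290.4 and 197), and its 1 other tested probe set had the opposite sign.

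Of 34 tested Wnt and Notch genes, 6 were higher and 3 lower at an unadjusted p under 0.05, with a median of 0.24. The median was 0.11 after median centring, 0.09 without WSD replicate 2 (level with 0.09 over all genes in that fit) and 0.12 without WSD replicate 3. FZD4, a Wnt receptor, was 218, 150.0 and 234 in WSD, 431, 361 and 444 in WSD+T and 646, 836 and 1213 in control, so that WSD+T lay between the other groups (log2 difference 1.00 ± 0.20, adjusted p = 0.0791). NOTCH3, the Notch receptor of mural cells, was 527, 802 and 661 in WSD and 1215, 1277 and 1205 in WSD+T (log2 difference 0.90, adjusted p = 0.0805). The groups did not overlap for either gene.

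Genes of the unfolded protein and amino acid stress response were mostly of negative sign, that is, lower in WSD+T. Of 23 tested, 10 were lower and 2 higher at an unadjusted p under 0.05 (52.2% in all, against 19% of all genes). A negative sign was found for 20, against 4004 of 10046 over all genes. The median was -0.44, with -0.45 to -0.57 after the other scalings. None passed at an adjusted p under 0.05 in the main fit, with 1 lower without WSD replicate 2, 0 without WSD replicate 3 and 1 with all 9 arrays. CHAC1, a glutathione-degrading target of the stress factor ATF4, was 343, 122 and 410.0 in WSD and 9.79, 10.4 and 73.1 in WSD+T. All WSD+T arrays were below the WSD arrays, and control was at 8.76, 16.9 and 1.64 (log2 difference -2.81 ± 0.62, adjusted p = 0.0925). DDIT3, the stress-induced factor CHOP, was 705, 566 and 1181 in WSD and 265, 290.0 and 433 in WSD+T (log2 difference -1.23 ± 0.32, adjusted p = 0.115). HERPUD1, which helps degrade misfolded proteins at the endoplasmic reticulum, was 2287, 2295 and 3530.2 in WSD and 1479, 1351 and 1529 in WSD+T (log2 difference -0.86 ± 0.21, adjusted p = 0.103). In DDIT3 and HERPUD1 the groups did not overlap, and WSD replicate 3 was the highest array. Without it the log2 differences were -0.94 and -0.65, and neither gene passed. SLC7A11, the cystine importer, was 144, 162 and 843 in WSD and 27.4, 14.6 and 79.9 in WSD+T, again highest in WSD replicate 3 (log2 difference -2.53 ± 0.74, adjusted p = 0.141). EDEM1, which also serves the disposal of misfolded proteins, had the opposite sign, with 575, 611 and 617 in WSD and 836, 852 and 901 in WSD+T (log2 difference 0.51, adjusted p = 0.106), although its 1 other tested probe set had a negative sign.

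Genes of the ovulatory response, which luteinising hormone and the EGF-like factors switch on in large follicles, were also mostly of negative sign. Of 20 tested, 7 were lower and 2 higher at an unadjusted p under 0.05 (45% in all), and the median was -0.33. TNFAIP6, which crosslinks the hyaluronan matrix of the cumulus, was 515, 970.1 and 615 in WSD and 191, 133 and 241 in WSD+T (log2 difference -1.79 ± 0.30, adjusted p = 0.0673). HAS2, which makes that hyaluronan, was 1214, 284 and 702 in WSD and 87.9, 56.4 and 307 in WSD+T (log2 difference -2.26 ± 0.71, adjusted p = 0.157). TNFAIP6 did not overlap between the groups, whereas HAS2 did, because WSD replicate 2 lay below WSD+T replicate 3. AREG, the EGF-like factor amphiregulin, was 115, 197 and 165 in WSD and 58.2, 33.1 and 70.8 in WSD+T (log2 difference -1.33, adjusted p = 0.0846), with control lower still at 31.4, 12.7 and 17.8. ADAMTS4 and ADAMTS1, both proteases that cut versican, had opposite signs. ADAMTS4 was 1477, 2218 and 1336 in WSD and 576, 375 and 654 in WSD+T (log2 difference -1.62, adjusted p = 0.0673), and ADAMTS1 was 161, 279 and 106 in WSD and 382, 389 and 409.7 in WSD+T (log2 difference 1.14, adjusted p = 0.128). The summed signal of the list was 25612, 28170.0 and 21297 in WSD and 21421, 19168 and 21388 in WSD+T, in the same order within WSD as the myeloid sum. In WSD replicate 3, where the myeloid sum was 989, the list lay within the WSD+T range, while TNFAIP6 and AREG were still above every WSD+T array. The part of myeloid RNA in the list was not tested further.

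**Figure D5:**
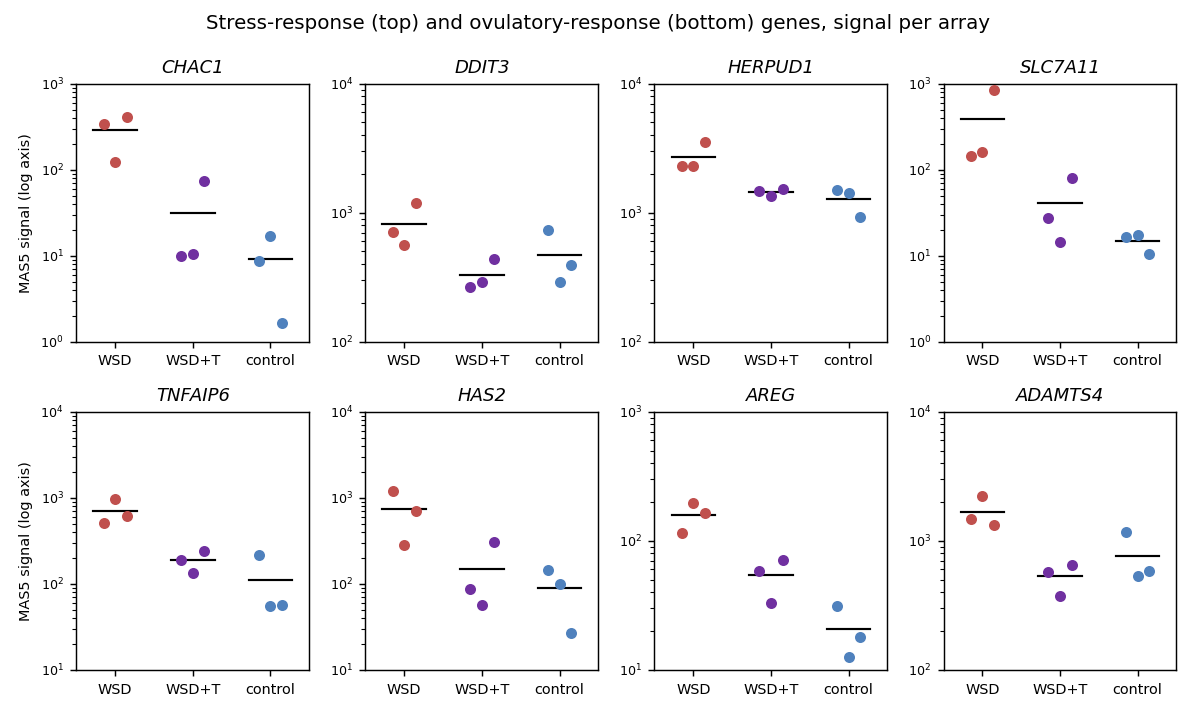
Signal (log axis) of 4 stress-response genes (top row) and 4 ovulatory-response genes (bottom row) on each array, with WSD in red, WSD+T in purple and control in blue; points are arrays in replicate order and lines are group means. In 7 of the 8 panels the WSD+T arrays lie below all WSD arrays, HAS2 being the exception. No panel shows a gene that passed at an adjusted p under 0.05. The panels are a selection of genes of negative sign, and EDEM1 and ADAMTS1, of positive sign, are not shown. The groups did not overlap for 10 lower and 2 higher of 23 stress genes. For the 20 ovulatory genes these numbers were 6 and 2, against 28.8% of all genes in either direction.

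The extracellular matrix held some of the widest higher values. Of 42 tested matrix genes, 6 were higher and 1 lower at an unadjusted p under 0.05 (16.7% in all, against 19% of all genes), with a median of 0.14. That median was 0.0068 after median centring, 0.30 without WSD replicate 2 and 0.08 without WSD replicate 3. LUM, the collagen-binding proteoglycan lumican, was 22.4, 32.4 and 9.79 in WSD, 197, 431 and 191 in WSD+T and 920.3, 749 and 417 in control. WSD was lowest, WSD+T lay above all WSD arrays, and WSD+T replicate 2 reached the control range (log2 difference 2.89 ± 0.38, adjusted p = 0.0524). DCN, the related proteoglycan decorin, was 1300.5, 2203 and 1971 in WSD and 2780.2, 3577 and 2985 in WSD+T (log2 difference 0.79, adjusted p = 0.143). LAMB2, a laminin chain of basement membranes, was 287, 281 and 296 in WSD and 384, 449 and 378 in WSD+T (log2 difference 0.46). LUM and DCN are also markers of stroma, and the 11 stroma markers summed to 14514, 19746 and 13300.0 in WSD and 16165, 18022 and 15967 in WSD+T, which overlap. MFAP5 alone was 4894, 4503 and 4813 in WSD and 4403, 5016 and 4072 in WSD+T. STAR, also on the theca and luteal lists, was a further large part, and LUM weighs little in the sum. TCF21, a transcription factor of stromal cells, was 66.1, 134 and 55.5 in WSD and 300.2, 269 and 228 in WSD+T (log2 difference 1.55, adjusted p = 0.0744). The part of stromal RNA in these differences was not tested.

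Matrix proteases had both signs, with 6 higher and 5 lower of 37 tested. Their median was 0.11, and it changed sign after median centring (-0.03) and without WSD replicate 3 (-0.25, with 7 higher and 11 lower). ADAMTS5, an aggrecan- and versican-cutting protease, was 189, 427 and 98.4 in WSD and 886, 803 and 855 in WSD+T (log2 difference 1.98 ± 0.46, adjusted p = 0.0997). MMP1, interstitial collagenase, was 793, 1367 and 972 in WSD and 394, 224 and 541 in WSD+T (log2 difference -1.45 ± 0.35, adjusted p = 0.107). Both separated the groups fully. MMP11, a stromelysin of stromal cells, was 28.9, 52.7 and 60.8 in WSD and 105, 93.97 and 114 in WSD+T (log2 difference 0.96).

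In calcium and cyclic AMP signalling, 4 of 33 tested genes were higher and 5 lower. Beside NFATC2, the list held PDE8A, a cyclic AMP phosphodiesterase, at 452, 539 and 539.9 in WSD and 299, 339 and 329.6 in WSD+T (log2 difference -0.63, adjusted p = 0.093). NFATC3, another calcineurin-dependent factor, was 649, 686 and 751 in WSD and 1003, 962 and 1022 in WSD+T, opposite in sign to NFATC2 (log2 difference 0.51, adjusted p = 0.113). CREM, a cyclic AMP-responsive repressor and activator, was 769, 936 and 497 in WSD and 372, 369 and 369 in WSD+T (log2 difference -0.91, adjusted p = 0.118). None of these 3 genes overlapped between the groups. PKIA, an inhibitor of protein kinase A, was 87.3, 253 and 28.9 in WSD, 488, 389 and 459 in WSD+T and 93.05, 29.96 and 31.5 in control. WSD+T was above all other arrays, but the WSD arrays spanned a wide range, and the difference of 2.09 ± 0.61 had an adjusted p of 0.139. PTHLH, parathyroid hormone-related peptide, was 2374, 722 and 1801 in WSD and 1500.4, 1215 and 1559.6 in WSD+T, both mostly above control at 798, 858 and 778, and did not separate them.

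In metabolism, glycolytic genes were mostly of negative sign. Of 19 tested, 16 had a negative sign, against 4004 of 10046 over all genes. The median was -0.24, and 2 lower genes had an unadjusted p under 0.05. That count was 7 after median centring, 5 after quantile normalization, 4 after loess, 4 without WSD replicate 2 and 6 without WSD replicate 3. ENO2, an enolase, was 1836, 1821 and 1728 in WSD and 1179, 1161 and 1284 in WSD+T (log2 difference -0.57 ± 0.13, adjusted p = 0.093), without overlap and level with control at 1192, 1261 and 1095. SLC2A1, the glucose transporter GLUT1, was 299, 244 and 325 in WSD and 147, 172 and 225 in WSD+T (log2 difference -0.64, adjusted p = 0.155). Of 26 tested respiratory chain and ATP synthase genes, 0 were higher and 1 was lower, with a median of -0.06. The lower gene was SDHC, a subunit of succinate dehydrogenase, at 1969.5, 1903 and 1772 in WSD and 1372, 1342 and 1474 in WSD+T.

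Lipid synthesis held 4 lower and 1 higher of 26 tested genes. SREBF2, the master factor of cholesterol synthesis, was 916, 703 and 969.7 in WSD and 510.1, 586 and 524 in WSD+T, against 725, 1140.2 and 951 in control (log2 difference -0.65 ± 0.17, adjusted p = 0.116). IDI1, an enzyme of that pathway, was 679, 474 and 887 in WSD and 417, 426 and 377 in WSD+T (log2 difference -0.68). Both were lower on every WSD+T array than on any WSD array. In lipid storage, transport and oxidation 3 of 25 were higher and 1 was lower, but 0 were higher and 2 lower after median centring, which turned the median from 0.13 to -0.0041. ADIPOQ, the fat-cell hormone adiponectin, was 590.1, 417 and 473 in WSD and 672, 692 and 665 in WSD+T (log2 difference 0.46, adjusted p = 0.202), and 1 of its 2 other tested probe sets had the opposite sign. The 4 tested adipocyte genes summed to 3822, 3659.8 and 3361 in WSD and 3747, 3588 and 3647 in WSD+T, which overlap. Most of that sum is PNPLA2, a lipase, at 2772, 2162 and 2836 in WSD and 2271, 2224 and 2185 in WSD+T. Of the 4 genes, ADIPOQ and LEP, which encodes leptin, were higher at an unadjusted p under 0.05, with a list median of 0.51. After median centring 0 were, and the median was 0.37.

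Of 36 tested insulin, IGF and mTOR genes, 6 were higher and 4 lower, with a median of 0.03. After median centring 2 were higher and 5 lower, and the median was -0.11. TSC1, which holds mTOR complex 1 in check, was 92.6, 141 and 96.5 in WSD and 243, 245 and 215 in WSD+T (log2 difference 1.01 ± 0.18, adjusted p = 0.0703). GRB10, an adaptor that dampens insulin receptor signalling, was 231, 489.7 and 208 in WSD and 726, 566 and 733 in WSD+T (log2 difference 1.18 ± 0.33, adjusted p = 0.13). Both had all WSD+T arrays above all WSD arrays, but neither of the 2 other tested probe sets of GRB10 had the same sign, and 1 of them had an unadjusted p under 0.05 in the opposite direction. FOXO4, a transcription factor that insulin keeps out of the nucleus, was 664, 619 and 650.0 in WSD and 895, 846 and 953 in WSD+T (log2 difference 0.47). IGF1R, the IGF receptor, was 861, 333 and 705 in WSD and 600.2, 634 and 614 in WSD+T and did not separate the groups.

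Antioxidant genes held 6 lower and 0 higher of 23 tested at an unadjusted p under 0.05, although their median was -0.05. GCLM, the regulatory subunit of the first enzyme of glutathione synthesis, was 1243, 1474 and 1340.4 in WSD and 863, 707 and 894 in WSD+T (log2 difference -0.71 ± 0.16, adjusted p = 0.088). SRXN1, sulfiredoxin, was 733, 834 and 501 in WSD and 383, 389.7 and 403 in WSD+T (log2 difference -0.76, adjusted p = 0.127). All 6, among them SLC7A11 above, had WSD+T below every WSD array.

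Of 27 tested heat shock and immediate early genes, 3 were higher and 1 lower, against 2 and 5 after median centring and 3 and 5 without WSD replicate 3. FOS, an immediate early transcription factor, was 994, 327 and 519 in WSD and 1786, 1811 and 1785 in WSD+T, with control at 3377, 1722 and 2484 (log2 difference 1.67 ± 0.38, adjusted p = 0.094). HSPH1, a large heat shock protein, was 1646, 1687 and 1552 in WSD and 2664, 2714 and 2643 in WSD+T (log2 difference 0.71 ± 0.12, adjusted p = 0.0673). The groups did not overlap for either, and WSD+T was within or near the control range. Of 21 tested apoptosis genes, 3 were higher and 4 lower. GADD45A and CDKN1A, both arrest genes under p53, were 2852, 1925 and 2302 and 2066, 1392 and 1680.3 in WSD. In WSD+T they were 1262, 1059 and 1422 and 905, 703 and 1121, below every WSD array (adjusted p = 0.0925 and 0.113).

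The inflammatory list turned with the 2 WSD arrays that stood farthest apart. Of its 28 tested genes, 2 were higher and 6 lower at an unadjusted p under 0.05, with a median of 0.02. Without WSD replicate 2, 9 of the 27 genes in that fit were higher and 4 lower, with a median of 0.39. Without WSD replicate 3, 3 were higher and 11 lower, with a median of -0.38. The myeloid sum was highest in the first of these arrays and lowest in the second, and its part in the list was not tested. Beside OSM, NFKB2, a subunit of the non-canonical NF-kB pathway, was 35.2, 70.5 and 54.7 in WSD and 147, 132 and 143 in WSD+T (log2 difference 1.21 ± 0.21, adjusted p = 0.0675), and its 1 other tested probe set had the opposite sign. Its partner RELB was 145, 158 and 146 in WSD and 81.02, 92.6 and 112 in WSD+T, with a negative sign (log2 difference -0.59, adjusted p = 0.116). Interferon response genes numbered 4 higher and 2 lower of 28, but 1 and 4 after median centring and 3 and 3 after quantile normalization or loess. They numbered 9 and 2 without WSD replicate 2 and 2 and 9 without WSD replicate 3. UBD, a ubiquitin-like modifier, was 12.4, 41.3 and 12.05 in WSD and 106, 61.7 and 84.6 in WSD+T, and ISG20, an exonuclease, was 175, 384 and 145 in WSD and 67.8, 72.1 and 92.6 in WSD+T. Both separated the groups, in opposite directions, with adjusted p of 0.0936 and 0.121.

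Proliferation did not separate the groups. Of 25 tested genes 0 were higher and 1 was lower at an unadjusted p under 0.05 (4%), with a median of -0.04. MKI67, a marker of cycling cells, was 122, 78.1 and 108 in WSD and 92.01, 111 and 91.3 in WSD+T, against 444, 736 and 438 in control. Both groups were below all control arrays. MCM4, a subunit of the replicative helicase, was 395, 395 and 532 in WSD and 309, 224 and 304 in WSD+T (log2 difference -0.63, adjusted p = 0.157). Of 28 tested cytosolic ribosomal protein genes, 1 was higher and 0 lower, with a median of -0.05 that turned sign after quantile normalization and loess. That gene, RPS19, has many near-identical copies in primate genomes and is uncertain.

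Oocyte genes were mostly of positive sign, with 5 higher and 1 lower of 12 tested and a median of 0.48. FIGLA, a transcription factor of oocytes, was 62.8, 31.8 and 26.6 in WSD, 108, 146 and 188 in WSD+T and 45.7, 30.1 and 9.96 in control (log2 difference 1.56 ± 0.29, adjusted p = 0.0731). OOEP, a component of the subcortical maternal complex, was 108, 193 and 62.5 in WSD and 271, 262 and 341 in WSD+T (log2 difference 1.27 ± 0.35, adjusted p = 0.13). Both had WSD+T above all other arrays. ZP4, a zona pellucida protein, had the opposite sign, with 728, 868 and 793 in WSD and 457, 287 and 478 in WSD+T (log2 difference -0.97, adjusted p = 0.0956), whereas ZP3, of the same coat, was 302, 365 and 143 in WSD and 416, 517 and 442 in WSD+T. The 12 genes summed to 1679, 2156 and 1409 in WSD and 1923, 2098 and 2336 in WSD+T, which overlap through WSD replicate 2, and WSD replicate 3 had 4 of the 12 below the kept minimum. No oocyte gene passed without WSD replicate 3, and 2 passed without WSD replicate 2. Whether the number of oocytes per sample differed was not tested, and GDF9 was not analysed here.

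All 11 tested endothelial genes had a positive sign (the smallest, 0.01, turns negative after median centring), against 6042 of 10046 over all genes. Their median was 1.00, with 4 at an unadjusted p under 0.05. Without WSD replicate 3, whose endothelial sum was the lowest, the median was 0.32, PECAM1 and CDH5 were negative and 3 had an unadjusted p under 0.05. Without WSD replicate 2 the median was 1.41, and 8 had one. SOX17, a transcription factor of arterial endothelium, was 17.7, 34.6 and 17.2 in WSD and 112, 87.8 and 76.4 in WSD+T (log2 difference 1.48 ± 0.22, adjusted p = 0.0615). It was above every WSD and control array in WSD+T, and its other tested probe set had the same sign with an unadjusted p under 0.05. SELE, an adhesion molecule of activated endothelium, was 29.1, 22.96 and 11.1 in WSD, 69.1, 53.7 and 59.9 in WSD+T and 299, 62.3 and 165 in control (log2 difference 1.08, adjusted p = 0.0819). PECAM1, a defining endothelial marker, was 963, 2000.3 and 225 in WSD and 945, 822 and 934 in WSD+T, with WSD replicate 2 the highest and WSD replicate 3 the lowest of the 6 arrays. Its log2 difference was 0.23 with all arrays and -0.62 without WSD replicate 3. In the angiogenesis list, ANGPT1, the ligand that steadies vessels, was 64.8, 76.9 and 50.9 in WSD and 151, 103 and 146 in WSD+T (log2 difference 0.89, adjusted p = 0.0956), and EDN1, endothelin-1, was 46.3, 61.1 and 8.39 in WSD and 172, 107 and 171 in WSD+T (log2 difference 1.74, adjusted p = 0.115). Of the 20 tested angiogenesis genes, 3 were higher and 0 lower, and 3 and 2 without WSD replicate 3.

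Myeloid genes did not separate the groups, although their median was 0.74. Of 17 tested, 0 had an unadjusted p under 0.05 (limma), and 15 had a positive sign, against 6042 of 10046 over all genes. Without WSD replicate 3, 16 had a negative sign, 3 of them with an unadjusted p under 0.05, and the median was -0.59. MRC1, the macrophage mannose receptor, was 3026, 3289.7 and 55.6 in WSD and 3216, 2938 and 3034 in WSD+T. The log2 difference was 1.78 ± 1.44 with all 6 arrays and -0.04 without WSD replicate 3. AIF1 and TYROBP, both of macrophages, turned sign likewise, to -0.13 and -0.14.

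Whether a named gene passed often rested on WSD replicate 2 or 3. Of the 163 named genes that did not pass with all 6 arrays, 25 passed in limma without either one of these arrays in turn, 19 only without replicate 2, 15 only without replicate 3 and 104 in neither fit. Over all genes, 243 higher and 102 lower of 9977 passed without replicate 2, and 354 and 135 of 9983 without replicate 3. Many named genes were picked by small p on the same arrays, so their counts test nothing. Beside the ranked genes, those that passed in both fits include ID3, ACVR1B, TNFAIP6, HSPH1, NFKB2, LUM and SOX17. Genes that passed only without replicate 2 include HPGD, CYP17A1, HSD17B1, NOTCH3, ADAMTS1, ADAMTS5, CHAC1, TSC1, GRB10, SREBF2, GADD45A, UBD, OOEP, TCF21 and PKIA. Over all 19, the adjusted p in the fit without replicate 3 was 0.0534 to 0.696. HSD17B1 did so with a log2 difference of -0.95, against 0.05 with all 6 arrays. Genes that passed only without replicate 3 include ELOVL5, STARD4, AMHR2, STAT3, SUFU, FZD4, ADAMTS4, SRXN1, MMP11, EDN1, CREM and SELE. Over all 15, the adjusted p in the fit without replicate 2 was 0.0505 to 0.311.

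The control arrays show where these differences lie. Of the 1308 genes higher in WSD+T at an unadjusted p under 0.05, 780 (59.6%) overlapped the control range, 334 (25.5%) lay above it and 194 (14.8%) below it. Of the 596 lower genes, 343 (57.6%) overlapped control, 102 (17.1%) lay above it and 151 (25.3%) below it. These genes were chosen by the WSD arrays that also set where WSD lies, so the shares describe levels and test nothing. The same shares over all tested genes were not computed, so no return toward control can be read from them. Higher genes for which WSD+T was above control and WSD was not apart from it numbered 260 (19.9% of the higher ones), OSM and NHLH2 being named examples. Lower genes for which WSD+T was below control and WSD was not apart from it numbered 108 (18.1% of the lower ones).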

How the data were processed

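Total RNA of whole small antral follicles was amplified by a NuGEN 3' protocol, labelled with biotin and read on 1-colour Affymetrix arrays, 1 per sample, per the labels' protocols. The deposited values are linear intensity per probe set, a scaled signal that the authors made with MAS5 (no version stated), per the submitters' processing notes. On every array the mean without the outer 2% of probe sets was 200.01, so each array had been scaled to 1 level. Earlier steps and the genome build are not given in the sources used here.

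Of 52865 probe sets, 99 controls were left out. From the remaining 52766, 26383 were tested, those with a mean log2(signal + 16) in the 6 arrays no lower than the median (5.20, a signal of 20.7). R 4.3.3 with limma 3.58.1 (functions lmFit and eBayes; 4 residual and 2.42 prior degrees of freedom; two-sided) compared WSD+T with WSD on the 3 and 3 arrays, with Benjamini-Hochberg adjustment over all tested probe sets and a threshold of 0.05. The script was tested on simulated data. The pseudocount understates differences of low signals, and p-values measure only the spread between these samples.

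Symbols came from the array's annotation: 16694 tested probe sets had 1 symbol, 218 several and 9471 none. Of the 16694, 16504 were found in a RefSeq table, all with the same symbol. For each of 10046 genes the brightest tested probe set, by mean, was used. Named were the genes past the threshold, filled to 10 per direction by smallest p among those at least 2-fold apart, up to 4 genes of smallest p in each of 25 gene groups and 14 cell type lists, and a fixed list. The comparison, its members and the lists were chosen with earlier results of these data known. Alternatives covered pseudocount, filter, scaling, weights, the variance prior, the 9-array fit, a replicate block and leaving out each array. Plots used matplotlib 3.10.9 under Python 3.11.15.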

Additional observations from a re-analysis of the deposited data

How the results depend on the processing

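Calls at an adjusted p under 0.05 moved with nearly every setting, and the cause was not tested. Higher and lower probe sets, 7 and 2 as reported, numbered 2 and 0 with a pseudocount of 1, 210 and 107 with 64, 15 and 3 without a filter, 124 and 80 with a filter at the upper quartile, and 1 and 0 after median centring, quantile normalization or cyclic loess. They numbered 550 and 258 with all 9 arrays, 5 and 1 with an intensity trend, 4 and 0 with a robust prior, and 0 and 0 with 1 weight per group (4655 at an unadjusted p under 0.05) or with WSD+T replicates 1 and 3 averaged (3300). With 1 weight per array they were 9035 and 6277, but limma reported no convergence and gave WSD replicate 1 a weight of 21.68. Leaving out 1 array gave 0 to 972 higher and 0 to 394 lower.

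At an unadjusted p under 0.05, 3404 were higher and 1799 lower. Higher counts were 5216 without a filter, 1511 with the upper-quartile filter, 1830 after median centring, 9724 with 1 weight per array and 2117 with the 2 arrays averaged. Lower counts were 2756 after median centring, 6941 with 1 weight per array and 1183 with the arrays averaged. Leaving out 1 array gave 2043 to 4670 higher and 1044 to 2668 lower.

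Deviations of same-numbered arrays from their group means correlated at -0.05, -0.30 and -0.11, and those of differently numbered arrays at -0.22 to 0.27. With 3 arrays per group, these values cannot decide whether the replicate numbers pair the samples. With the replicate block 0 higher and 0 lower passed in limma, against 3814 at an unadjusted p under 0.05 and a smallest adjusted p of 0.244.

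Of 3254 values of the 166 named genes under the alternatives, 36 lost their call (OSM, THAP2 and GLUD1), 296 gained one (144 of them with 1 weight per array) and 36 changed sign, in 16 genes that had not passed. EPCAM was -0.143 with a pseudocount of 64, -0.119 after median centring, -0.0700 after quantile normalization and -0.100 after loess. HSD17B1 was -0.0512, -0.0853, -0.00987 and -0.0295 in those fits and -0.992 with 1 weight per array. IGF1R was -0.0732 and CYP3A5 -0.0208 after median centring, and CYP3A5 -0.00670 and PTHLH 0.0498 after quantile normalization. With 1 weight per array IGF1R was -0.478, PECAM1 -0.0532, GZMA -0.00433 and IHH -0.00235. In fits without 1 array, EPCAM ran from -0.968 to 1.11, HSD17B1 from -0.948 to 0.555, IGF1R from -0.332 to 0.334, CYP3A5 from -0.259 to 0.599, PTHLH from -0.540 to 0.308, PECAM1 from -0.619 to 0.914, MRC1 from -0.0437 to 2.72, AIF1 from -0.134 to 2.19, TYROBP from -0.136 to 2.08, CD4 from -0.324 to 0.707, CD8A from -0.311 to 0.0926, ESR2 from -0.122 to 0.501, INHA from -0.541 to 0.0641 and MKI67 from -0.202 to 0.0719.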

Other observations

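Lists of less common cell types held few tested genes. Of 7 smooth muscle and pericyte genes, 2 had an unadjusted p under 0.05, both higher in WSD+T, one of them LMOD1, a regulator of smooth muscle actin. LMOD1 had a signal of 119, 112 and 379.6 in WSD and 382, 366 and 383 in WSD+T, so WSD replicate 3 alone reached the WSD+T level. On another tested probe set it was 84.4, 97.0 and 318 in WSD and 449, 402 and 454 in WSD+T, without overlap. Of 5 T and NK cell genes, 0 had an unadjusted p under 0.05 (limma), and GZMA, a granzyme, was 2939, 2039.5 and 2645 in WSD and 2942, 3178 and 2806 in WSD+T. Of 3 B and plasma cell genes, JCHAIN, the joining chain of secreted antibody, was 35.0, 76.2 and 7.86 in WSD and 102, 82.5 and 91.4 in WSD+T (log2 difference 1.16, adjusted p = 0.241). The mast cell list held 1 tested gene, which did not separate the groups.

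Of 4 ovarian surface epithelium genes, 0 had an unadjusted p under 0.05 (limma). EPCAM, an epithelial adhesion molecule, was 142, 30.8 and 822 in WSD and 171, 182 and 159.5 in WSD+T, with WSD replicate 3 far above all other arrays. Of 3 luteal cell genes, HSD3B2 was the one at an unadjusted p under 0.05. The red blood cell list held 2 tested genes of opposite sign. HBB, beta-globin by the array's annotation, was 602, 568 and 667 in WSD and 267, 309 and 204 in WSD+T (log2 difference -1.20, adjusted p = 0.0621). Its identity is uncertain, because a probe set of the same cluster name is assigned to USP14, a deubiquitinase of the proteasome. All 5 tested probe sets of USP14 had a negative log2 difference, from -1.45 to -1.22, at adjusted p of 0.0524 to 0.0616. USP14 was named after its values were seen.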
